A study of Danio rerio with 6 samples.

Results

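The probes described here are those that rose clear of background on every *vhl* mutant array and on no wild-type array of a zebrafish expression series. A probe was included when all its spots were called well above background by the feature extraction software on the 3 *vhl* arrays, when none was so called on the 3 wild-type (WT) arrays, and when its mean level was at least 0.5 higher in *vhl* on a log2 scale. There were 199 such probes, the members, among 41031 zebrafish probes. The level used for zebrafish probes is log2 of the processed signal plus an offset of 50, quantile-normalised over the 6 arrays, so an absent transcript sits near 5.73 and not at 0. The members were thus chosen by the detection calls and levels of the same *vhl* and WT arrays, and the differences between the groups are given as a description, without tests.

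The *vhl* samples were 3 pools (replicates 1, 3 and 4) of 30 whole embryos homozygous for a mutation of *vhl*, and the WT samples were 3 pools (replicates 2, 3 and 4) of 30 embryos labelled wild type. All were of a TL/LWT mix strain and were raised at 28 °C to 4 days post fertilisation (dpf). The *vhl* allele named in the methods is hu2117. Its line had been crossed to a *phd3*::EGFP reporter, and whether the array embryos carried that transgene was not given. RNA of whole embryos was labelled with Cy3 and read on one-colour oligonucleotide arrays from Agilent, 1 pool per array.

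Vhl, the von Hippel-Lindau protein, is part of a ubiquitin ligase that targets the α subunits of HIF, the Hypoxia Inducible Factor, for destruction when oxygen is plentiful. Without it HIF accumulates in normal oxygen and switches on genes of glycolysis, blood vessel growth and red cell production. A probe that passes from background to a clear signal is the array's nearest reading of a transcript that is present in one genotype and too scarce to be read in the other. In whole embryos, more cells of a type and more RNA per cell cannot be told apart.

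The 3 *vhl* arrays came from 1 slide and the 3 WT arrays from another, so slide and genotype cannot be told apart. The percentage of probes well above background was 65.7, 71 and 68.1% on *vhl* replicates 1, 3 and 4, and 65.6, 66.6 and 68.1% on WT replicates 2, 3 and 4. For control spots the quantile step ran over all spots, controls included, and for the members' levels over zebrafish spots alone. The 10 kinds of control spot for the labelling spike-in RNAs averaged 11.36 on the *vhl* arrays and 10.86 on the WT arrays. Their mean difference of 0.5 is as large as the limit set for a member. The difference rose and fell with brightness, from 0.04 at a level near 5.8, through 0.27 for a feature at 6.52 in *vhl* and 6.26 in WT, to 0.97 for one at 13.82 in *vhl* and 12.85 in WT. The part of these differences in the members' values was not tested. No probe carried the symbol *vhl* here, so the level of the mutated gene is not given. *egln3*, the HIF prolyl hydroxylase gene also called *phd3* and a standard HIF target, had levels of 16.21, 15.83 and 15.57 in *vhl* pools and 8.94, 8.71 and 8.90 in WT pools. It was well above background on every array and is therefore no member.

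On all 3 *vhl* arrays and on no WT array, 482 probes were well above background, 1.17% of the array. Of these, 199 reached the limit of 0.5 and 283 did not. The opposite pattern, present on all WT arrays and on no *vhl* array, was found for 335 probes, or 0.816%. A difference of at least 0.5 in favour of WT was reached by 171 of these. The median difference of these 171 probes was -0.78 and the most extreme was -4.37, whereas the members had a median of 0.79, quartiles of 0.61 and 1.19 and a highest value of 5.19. A difference of at least 2 was seen in 24 of the 199 members, and one of that size in favour of WT in 14 of the 171 opposite probes. Over all probes the median difference was 0.

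**Figure D1:**
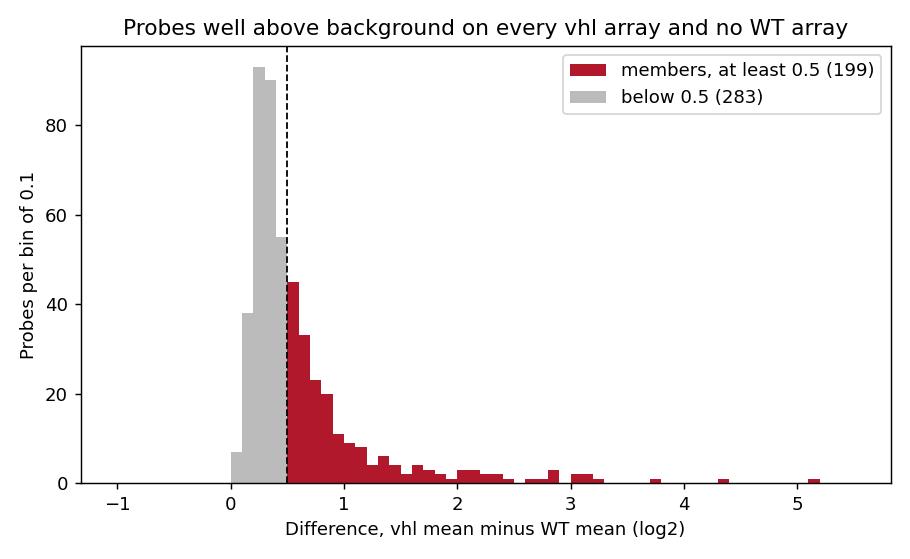
Number of probes (y axis, per bin of 0.1) by the difference of the *vhl* mean over the WT mean on the log2 scale (x axis), for the 482 probes well above background on every *vhl* array and no WT array. The 199 members lie at or right of the dashed limit of 0.5, most of them close to it, and the 283 others lie left of it.

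The limit ran through a dense part of this distribution. The 3 members closest to it had differences of 0.50, 0.50 and 0.51, and the 3 nearest probes outside it had 0.49, 0.49 and 0.48. All 6 lacked a gene symbol. The nearest member, probe CUST_2488_PI415676714, had levels of 6.14, 6.30 and 6.44 in *vhl* pools and 5.73, 5.87 and 5.78 in WT pools, and the nearest probe left out, CUST_3576_PI415676714, had 6.53, 6.15 and 6.36 in *vhl* pools and 5.95, 5.76 and 5.86 in WT pools. In both probes the genotypes were apart by less than 1.

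Most members were dim. The median processed signal of the members was 45.1, 49 and 60.7 on *vhl* replicates 1, 3 and 4, and 5.79, 5.89 and 7.43 on WT replicates 2, 3 and 4. The upper quartile of all zebrafish spots was the other way round, at 652 to 745 on *vhl* arrays and 843 to 906 on WT arrays. On the log2 scale the median member was at 6.61, 6.66 and 6.70 on the *vhl* arrays, against 5.85, 5.85 and 5.86 on the WT arrays. The highest member value was 11.02, 11.28 and 11.96 on *vhl* replicates 1, 3 and 4, the last from a different probe than the others. No member exceeded 6.16 on a WT array.

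**Figure D2:**
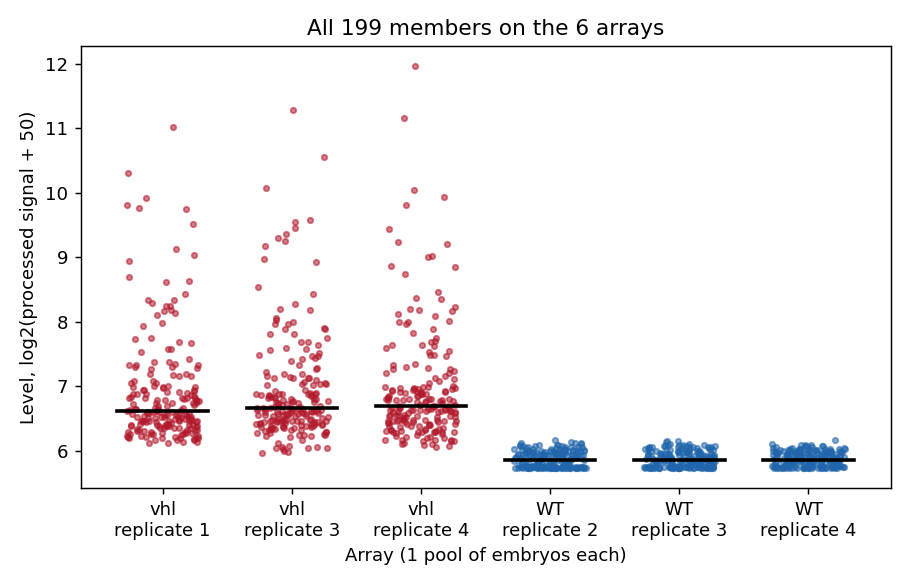
Level of each of the 199 members (points) on each array, with *vhl* arrays in red, WT arrays in blue and the median as a black bar; the y axis is log2 of the processed signal plus 50, quantile-normalised. WT values are packed between 5.73 and 6.16, while *vhl* values spread upwards from 5.96 to 11.96.

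Absence from the WT arrays was not equally firm for all members. The software makes a second, milder call, that a spot is positive and significantly brighter than its background. By that call, 95 of the 199 members were above background on all 3 WT arrays, 43 on 2 arrays, 29 on 1 array and 32 on none. The description of the members as detected only in *vhl* mutants therefore holds for the stricter call, and under both calls for the 32. On WT arrays these 32 had levels of 5.73 to 5.80 and processed signals of 2.7 to 4.4, and their median WT SD was 0.0012, against 0.0636 for the 95. These values lay at the bottom of the array's scale, where a small SD says little about how far the pools agreed. Members with a WT level above 5.80, *cdk5*, *fut9b.2* and *mical1* below among them, are not of the 32. At least 1 of their WT arrays passed the milder call.

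A WT value below the detection call is only a bound. For each member a lower bound of the fold difference was therefore taken from the *vhl* mean and from the WT mean with every WT value raised to at least the dimmest well-above-background level of its array. By this measure 51 members were at least 2-fold higher in *vhl*, 18 of them at least 4-fold, and the highest bound was 34.5-fold. The other 148 members had bounds from 1 to under 2. These bounds use the mean of the *vhl* pools. With the lowest *vhl* pool in its place, a choice made after the values were seen, 26 members were at least 2-fold higher and 9 at least 4-fold. The bounds, here and for single members below, make no allowance for the spike-in difference between the groups. That difference was 0.75 for a feature at 9.04 in *vhl* and 8.29 in WT.

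The lowest *vhl* pool was above the highest WT pool in 194 of the 199 members (97.5%), where 23.4% of all probes showed that order. The gap was at least 0.5 in 92 members and at least 1 in 35. The groups overlapped by at most 0.04 in the other 5, all without a symbol. In the linear model across all probes (limma, adjusted p of 0.01 or less and at least 2-fold), 28 members were called higher in *vhl* (14.1%), where 1.31% of all probes were called higher and 1.28% lower. With an adjusted p of 0.05 or less and no fold limit the counts were 149 members (74.9%) and 12.2% of all probes. These shares follow from the choice of members on the same contrast, and nothing is read from them. The number of members called was 45, 14 and 17 without *vhl* replicates 1, 3 and 4, and 7, 2 and 2 without WT replicates 2, 3 and 4.

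A gene symbol was available for 23 of the 199 members (11.6%) and for 7.68% of the other probes. Of the 23 symbols, 9 came from a RefSeq transcript accession and 14 from the symbols that the study's probe tables pair with probes. The study's table of changed genes is one source of these pairings, so that a changed probe had more chance of a name. Of these genes, 22 are described below by what their products do.

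Among genes of cell contacts and cilia, *gjb1a* (cx27.5 in the study's tables) encodes a connexin, a subunit of the gap junction channels that join neighbouring cells. Its levels were 8.25, 8.92 and 9.23 in *vhl* pools and 5.74, 5.74 and 5.85 in WT pools, a difference of 3.02 (at least 6.73-fold). *spag1b* is related to mammalian SPAG1, which helps to assemble the dynein arms of motile cilia. It had 8.42, 9.29 and 9.0 in *vhl* pools and 5.75, 5.74 and 5.74 in WT pools, with a difference of 3.16 (at least 7.25-fold). Both genes were lowest in *vhl* replicate 1, and even that pool lay more than 2 above every WT pool.

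The array held 12 probes with the symbol of a connexin gene (families looked up after the values were seen). *gjb1a* was the sole member among them, and the differences of the other probes ran from -1.47 to 1.69. *gja9b*, at 1.69, was higher in *vhl* (adjusted p = 0.00115, limma), and *gja8b*, a lens connexin, was lower at -1.13 (adjusted p = 0.00447, limma), with levels well above background on the WT arrays only.

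4 members belong to signalling pathways. *cdk5* encodes a cyclin-dependent kinase best known from neurons, where p35 and p39 activate it. Its 2 spots averaged 8.11, 7.96 and 8.12 in *vhl* pools and 5.94, 5.98 and 5.92 in WT pools. With these WT levels it was not among the 32 members that passed the milder call on no WT array. The difference was 2.12 (at least 4.04-fold), the *vhl* pools lay within 0.15 of each other, and *cdk5* was the sole member measured by more than 1 spot.

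*dusp19b* encodes a dual specificity phosphatase, and its mammalian counterpart is linked to the JNK pathway. It had levels of 8.63, 8.19 and 8.37 in *vhl* pools and 5.74, 5.74 and 5.74 in WT pools, a difference of 2.66 (at least 5.09-fold). On none of the arrays was its paralogue *dusp19a* well above background, and its difference was -0.04. The probes of this gene pair thus read clear signal for *dusp19b* in *vhl* alone.

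*il6st* encodes gp130, the receptor subunit shared by cytokines of the interleukin 6 family. It lay close to the limit, with 6.39, 6.86 and 6.42 in *vhl* pools and 5.81, 5.92 and 5.95 in WT pools, a difference of 0.66. All 3 WT spots passed the milder detection call. *or64e1*, an odorant receptor gene of the G protein-coupled receptor superfamily, had 6.14, 6.93 and 7.75 in *vhl* pools and 5.74, 5.80 and 5.74 in WT pools, a difference of 1.18 that differed widely between *vhl* pools. Of the 25 probes with a symbol beginning or6, 16 were never well above background and 5 were so on every array, and the differences of those other than *or64e1* ran from -0.21 to 0.48.

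In muscle and the cytoskeleton, *csrp3* encodes muscle LIM protein, a Z-disc protein of heart and skeletal muscle. It had 7.01, 7.68 and 8.16 in *vhl* pools, and 5.74, 5.74 and 5.74 in WT pools, a difference of 1.88 (at least 2.97-fold). *mical1* encodes a flavoprotein monooxygenase that oxidises actin and so takes filaments apart. Its levels were 6.46, 6.48 and 6.44 in *vhl* pools and 6.02, 5.89 and 5.87 in WT pools. Its difference of 0.54 was the smallest among named members, and its *vhl* pools lay within 0.04 of each other.

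*dnajc15* and *sdr39u1* belong to metabolism. In mammals DNAJC15 is a co-chaperone of the inner mitochondrial membrane, and in mice it restrains complex I of the respiratory chain. *dnajc15* had 8.61, 7.89 and 7.48 in *vhl* pools and 5.74, 5.73 and 5.73 in WT pools, a difference of 2.26 (at least 3.86-fold). *sdr39u1* is named as a member of the short-chain dehydrogenase/reductase family, which uses NAD(P) as cofactor. It had 7.17, 7.75 and 8.35 in *vhl* pools, and 5.73, 5.74 and 5.73 in WT pools, a difference of 2.02 (at least 3.27-fold). The order of the *vhl* pools was reversed between these genes, with replicate 1 highest for *dnajc15* and replicate 4 highest for *sdr39u1*.

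3 members are related to genes of innate immunity. *mfap4.4* belongs to the microfibril-associated protein 4 family, of secreted proteins with a fibrinogen-like domain, and the regulatory region of a zebrafish *mfap4* gene is used to label macrophages. Its levels were 7.73, 8.02 and 7.64 in *vhl* pools and 5.75, 5.74 and 5.74 in WT pools, a difference of 2.06 (at least 3.36-fold). The other probe of the family, *mfap4.1*, was well above background on every array and averaged 11.45 in *vhl* and 10.52 in WT, a difference of 0.93 that did not pass the test (adjusted p = 0.115, limma). The same probe stands for *mfap4* in the myeloid list given below.

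*trim35-24* and *trim35-23* belong to the TRIM family, whose RING-containing members act as ubiquitin ligases and which is much expanded in fish. *trim35-24* had 6.94, 7.01 and 6.85 in *vhl* pools and 5.76, 5.75 and 5.75 in WT pools, and *trim35-23* had 6.57, 6.59 and 6.39 in *vhl* pools and 5.74, 5.74 and 5.74 in WT pools. The differences were 1.18 and 0.78, with close *vhl* pools in both. The genes lie side by side on the chromosome, with 0 protein-coding genes between them in the RefSeq annotation of assembly GRCz12tu, and *zgc:173517*, another member, lies 14 to 15 genes away. Related genes of such a cluster can share sequence, and whether these probes tell them apart was not tested. The other 5 probes with a *trim35* symbol had differences of -0.49 to 0.70, and none was a member.

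*fut9b.2* belongs to a family of fucosyltransferases, of which mammalian FUT9 makes the Lewis x carbohydrate. It had 7.38, 7.32 and 7.15 in *vhl* pools and 5.98, 5.82 and 5.89 in WT pools, a difference of 1.39 (at least 2.35-fold). Both other probes of the family were well above background on every array, with differences of -1.21 for *fut9b.3* (adjusted p = 0.0253, limma) and 0.35 for *fut9d*. *paxx*, whose mammalian counterpart acts in the repair of DNA breaks by end joining, had 7.30, 6.90 and 6.91 in *vhl* pools, and 5.87, 5.74 and 5.74 in WT pools, a difference of 1.25 (at least 1.98-fold). Its *vhl* pools lay within 0.40 of each other, as those of *fut9b.2* did within 0.23.

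7 of the named members carry only provisional names. *zgc:153522* had 9.03, 8.54 and 9.02 in *vhl* pools and 6.02, 6.05 and 6.02 in WT pools, a difference of 2.83 (at least 7.01-fold). Its WT spots all passed the milder call. *si:dkey-190g11.3* had 7.32, 8.18 and 8.20 in *vhl* pools and 5.83, 5.79 and 5.77 in WT pools, a difference of 2.10 (at least 3.61-fold). *zgc:153759*, with 6.16, 7.27 and 8.09 in *vhl* pools and 5.74, 5.95 and 5.79 in WT pools, differed by 1.35 and had a wide spread. The remaining 3, *si:ch211-165i18.2*, *zgc:165582* and *si:ch211-155m12.1*, had differences of 0.78, 0.75 and 0.57, all under 1.

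The seventh provisional name, *zgc:173517*, split the *vhl* pools. It had 9.80 and 9.55 in *vhl* replicates 1 and 3 but 6.22 in replicate 4, and 5.73, 5.73 and 5.73 in WT pools. A probe without a symbol, CUST_5521_PI415677031, followed the same pattern with 9.74, 9.58 and 6.33 in *vhl* pools and 5.74, 5.74 and 5.74 in WT pools. In both, replicate 4 was still above every WT pool and more than 3 below the other *vhl* pools. The differences, 2.79 and 2.81, thus rest on 2 pools.

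**Figure D3:**
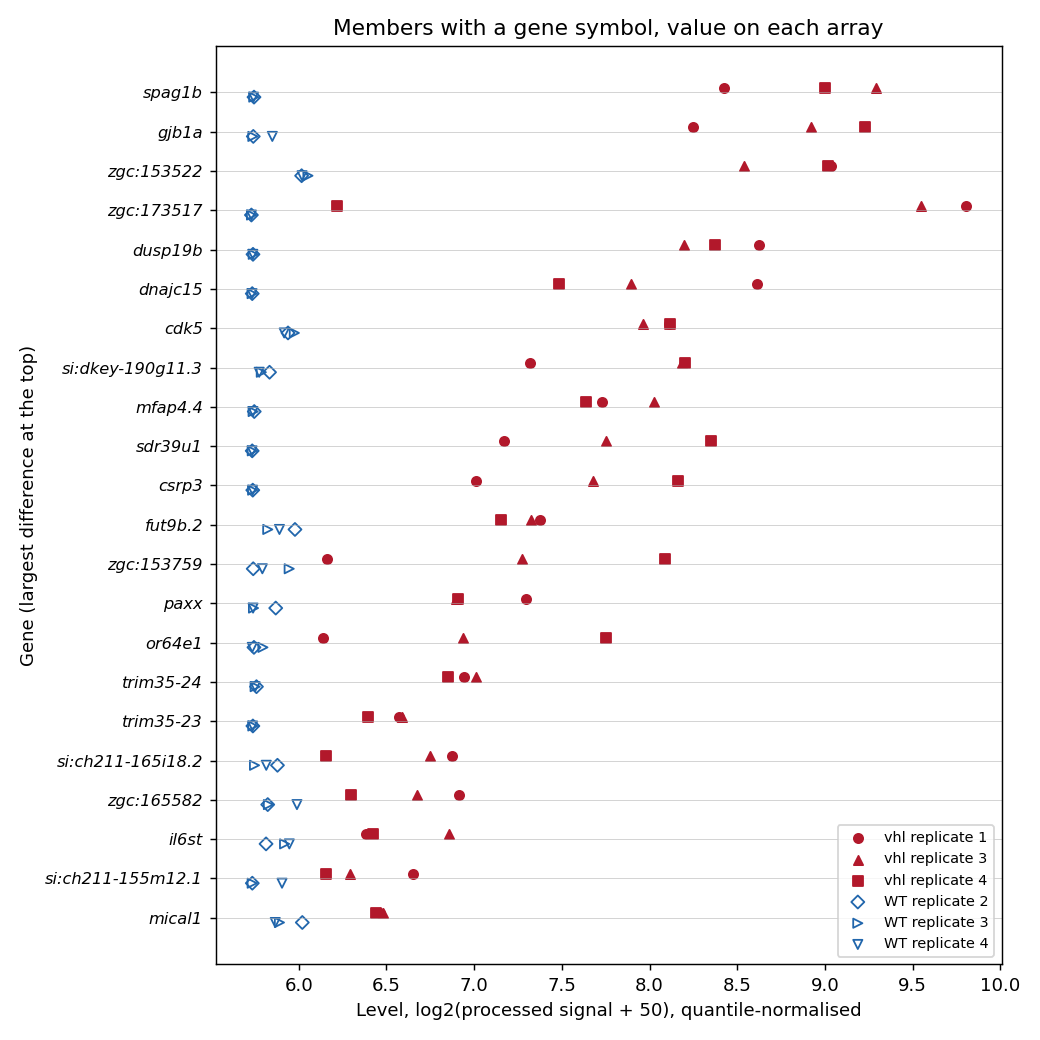
Level of 22 members with a gene symbol on each array (x axis, log2 of the processed signal plus 50, quantile-normalised), with *vhl* arrays as filled red marks above WT arrays as open blue marks, ordered by the difference. The *vhl* marks lie right of all WT marks for every gene, and for *zgc:173517* 1 *vhl* pool lies near the WT marks at 6.22.

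The other 176 members had no symbol, and the largest difference of all was among them. Probe CUST_3241_PI415676714 had 11.02, 11.28 and 11.16 in *vhl* pools and 5.89, 6.06 and 5.95 in WT pools. Its difference was 5.19, at least 34.5-fold, with the *vhl* pools within 0.26 of each other. Its WT spots all passed the milder detection call. Its processed signals were 1822, 2003 and 2140 on *vhl* arrays and 7.1, 14.3 and 11.3 on WT arrays.

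The next 4 of this kind were CUST_13624_PI415676714, CUST_12288_PI415676714, CUST_704_PI415677031 and CUST_3632_PI415677031, with differences of 3.75, 3.26, 3.12 and 3.02. CUST_13624_PI415676714 had 8.95, 10.07 and 9.94 in *vhl* pools and 5.93, 5.94 and 5.81 in WT pools (at least 12.1-fold). CUST_704_PI415677031 had 9.51, 9.36 and 8.46 in *vhl* pools and 5.99, 6.01 and 5.97 in WT pools (at least 8.34-fold). These pools stood well apart by genotype, though the WT spots of both probes all passed the milder call.

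CUST_12288_PI415676714 had 10.30, 7.91 and 8.86 in *vhl* pools and 5.73, 5.73 and 5.81 in WT pools (at least 7.85-fold). CUST_3632_PI415677031 had 7.68, 9.25 and 9.44 in *vhl* pools and 5.78, 5.78 and 5.77 in WT pools (at least 6.69-fold). Here *vhl* replicate 1 was the highest pool for one probe and the lowest for the other.

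Probes were members at different rates by the kind of sequence they were designed on. Of the 199, 125 (62.8%) were designed on GenBank entries that were neither RefSeq transcripts nor cDNA clones with accessions starting with BC. This class held 50.4% of all probes. Of the other members, 37 were designed on entries given only as cluster identifiers, 28 on the BC clones and 9 on RefSeq transcripts. This made 6.04 members per 1000 probes for the other GenBank entries, 4.86 for RefSeq transcripts, 4.08 for cluster identifiers and 2.97 for BC clones. Among the probes well above background on every *vhl* array, the rates were 12.8 per 1000 for the other GenBank entries, 6.57 for RefSeq transcripts, 6.03 for cluster identifiers and 3.34 for BC clones. The order of the classes was the same on both denominators. These rates are a description, and the signal of the classes differs too.

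**Figure D4:**
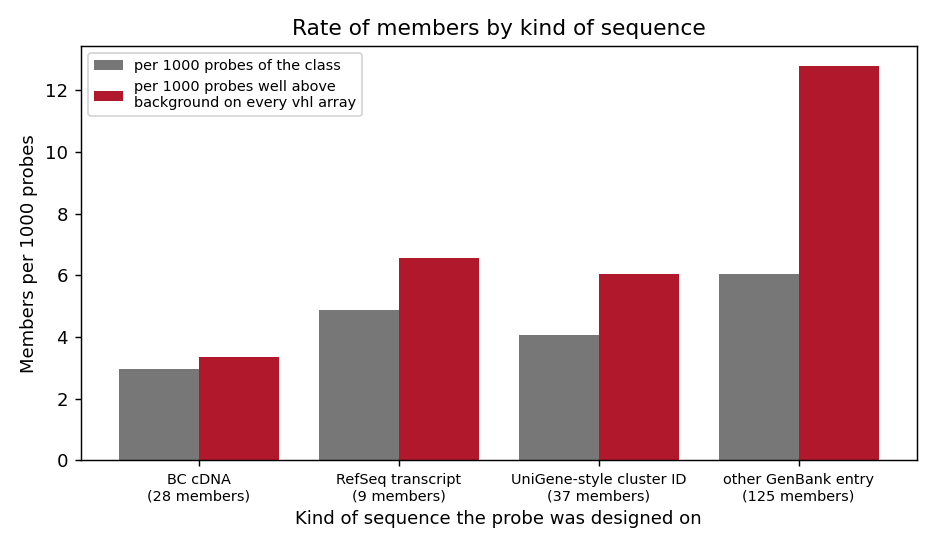
Members per 1000 probes (y axis) by the kind of sequence a probe was designed on (x axis), over all probes of the class (grey bars) and over its probes well above background on every *vhl* array (red bars). The rate is 2.97 for BC cDNA clones and 6.04 for other GenBank entries over all probes, and 3.34 and 12.8 over the detected ones.

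The *vhl* pools differed among themselves more than the WT pools, whose values sat near the bottom of the scale. The median SD of the members was 0.25 over the *vhl* pools and 0.06 over the WT pools (n = 3 each). The range over the 3 *vhl* pools had a median of 0.48, was under 0.5 in 105 members and over 1 in 48 (24.1%). For comparison, a *vhl* range over 1 was seen in 8.6% of the 24225 probes well above background on all arrays, and a WT range over 1 in 8 of the 171 opposite probes (4.7%). The members were chosen on their *vhl* values, and 1 high pool could lift a probe over the limit. The 24225 probes were not chosen in this way or matched to the members by level, so nothing is read from these shares. No single *vhl* pool was the highest in most members: replicate 1 was the highest pool in 65, replicate 3 in 66 and replicate 4 in 68. Replicate 1 was the lowest pool more often, in 88 members, against 53 for replicate 3 and 58 for replicate 4. Among the 48 with a range over 1, replicate 1 was the highest in 20, replicate 3 in 12 and replicate 4 in 16, and the lowest in 22, 14 and 12.

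10 members had a range over 2, and in 5 of them replicate 1 was highest, in 4 replicate 4 and in 1 replicate 3. The widest, CUST_5917_PI415676714, had 6.36, 6.13 and 11.96 in *vhl* pools and 5.76, 5.90 and 5.81 in WT pools, a range of 5.84. CUST_16569_PI415676714 had 6.11, 6.40 and 10.05 in *vhl* pools and 6.0, 6.01 and 6.0 in WT pools, and its spot of *vhl* replicate 4 was flagged as an outlier. In both, 1 pool supplied nearly all of the difference, which was 2.33 for the first and 1.52 for the second. Without the flagged spot the second differed by 0.25, below the limit of 0.5. These probes were chosen for mention after their values were seen. At the other end, 17 members with a *vhl* range under 0.5 had a difference of at least 1, *cdk5*, *dusp19b*, *mfap4.4*, *zgc:153522*, *fut9b.2*, *paxx* and *trim35-24* among them.

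**Figure D5:**
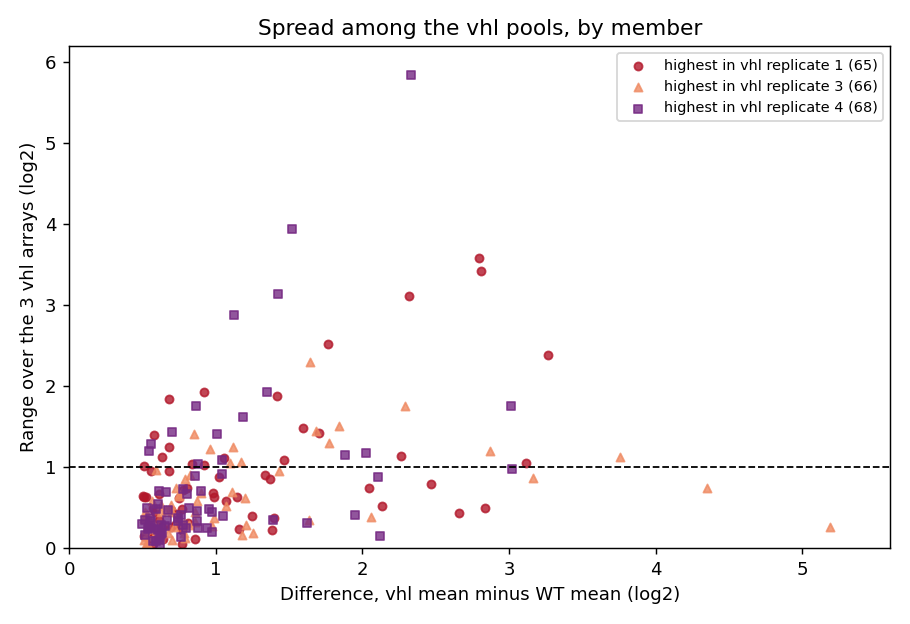
Range of the 3 *vhl* arrays (y axis, log2) against the difference of the *vhl* mean over the WT mean (x axis, log2) for the 199 members, marked by the *vhl* replicate with the highest value. The highest pool is spread evenly over the replicates (65, 66 and 68 members), and 48 members lie above the dashed line at 1.

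Genes of the HIF pathway and of the tissues that an embryo holds were looked up in 14 lists, to see which of them are members. For each, the count of genes called in the model across all probes is given beside those that had a named probe. Of 35 HIF target genes with a probe, 20 rose and 0 fell, and 0 were members. Members made up only 199 of all 41031 probes, so a list of this size may well hold none, and nothing is read from that. *egln3* rose by 7.02 (SE 0.18, adjusted p = 0.000866, limma), *ddit4*, a stress-induced inhibitor of mTOR signalling, by 3.69 (SE 0.28, adjusted p = 0.00309, limma), and *plod1a*, a collagen lysyl hydroxylase, by 3.47 (SE 0.33, adjusted p = 0.0044, limma). The median difference over the 36 probes of the list was 1.6, against 0 over all probes. As said above, a changed probe had more chance of a name from the study's tables. Over the 17 HIF target genes named by RefSeq alone, 5 rose, 0 fell and the median was 0.79. Apart from 2 genes of the list, the named HIF targets were well above background on at least 1 WT array.

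In the heart muscle list, 10 genes had a probe, of which 1 rose, 1 fell and 1, *csrp3*, was a member. *myh6*, the atrial myosin heavy chain, rose by 3.12 (SE 0.19, adjusted p = 0.0022, limma) and *atp2a2a*, the calcium pump of the sarcoplasmic reticulum, fell by 1.24 (SE 0.11, adjusted p = 0.00366, limma). None of the 3 heart muscle genes named by RefSeq was called. *csrp3* was a member of a list whose other genes moved both ways.

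The other lists held no member, from which nothing is read for the same reason. In the glycolysis list, 9 of 16 genes rose and 3 fell, and of the 4 named by RefSeq 0 rose and 1 fell. In the erythroid list, 6 of 7 rose and 0 fell, and both genes named by RefSeq rose. Genes called higher numbered 5 of 9 in the complement and acute phase list and 3 of 10 in the endothelial list. They numbered 3 of 8 in the liver list and 2 of 8 in the steroid hormone synthesis list. In each of these lists 0 were called lower, though each held at least 1 gene with a negative difference. In the liver list *ahsg1* and *tdo2a* differed by -1.76 and -1.78 without being called (adjusted p = 0.014 and 0.0142, limma). *serpina1* differed by -0.77, short of 2-fold, and the uncalled *fgg* and *apobb.1* differed by 0.64 and 0.20. The 3 liver genes called higher, *cp*, *hpx* and *fga*, are also among those of the complement and acute phase list, on the same probes. Among the genes of these lists that RefSeq names, 1 of 4 rose in the endothelial list, 0 of 1 in the liver list and 1 of 6 in the steroid hormone synthesis list, and the complement and acute phase list had 0 such genes, so that its count rests on names from the study's tables. None of the 3 myeloid and none of the 4 exocrine pancreas genes was called. Of the pancreas genes, *amy2a* differed by -2.37 (adjusted p = 0.0176, limma) and *cpa4* by -1.70 (adjusted p = 0.0104, limma). The differences of *ctrl* and *ptf1a* were 0.59 and -0.06. The myeloid genes were *cebpa*, *mfap4*, read by the *mfap4.1* probe above, and *tnfa*, which was well above background on no array. In the lymphoid list 1 of 5 genes fell, in the photoreceptor list 5 of 16 fell, in the lens crystallin list 1 of 8 rose and 1 fell, and in the list of solute transport in gas and acid exchange 2 of 12 rose and 4 fell. Of those named by RefSeq, 1 of 4 lymphoid genes and 3 of 8 photoreceptor genes fell, 1 of 4 lens crystallin genes rose and 0 of 3 solute transport genes were called. Not every gene of a list had a named probe, so an absence of members covers only the genes measured. Over all lists, 49 genes other than the members were called higher and 15 lower. The higher ones numbered 50, 13 and 12 without *vhl* replicates 1, 3 and 4, and 14, 4 and 6 without WT replicates 2, 3 and 4, and the lower ones 21, 5 and 4, and 4, 1 and 3 in the same order.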

How the data were processed

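Whole embryos at 4 dpf were profiled on 6 arrays. Per the file headers, spots were read by Agilent Feature Extraction 10.7.3.1. The deposited processed signal is an intensity that this software background-subtracted and detrended within each array, and the deposited flags of each spot are codes without a unit. The series table deposited by the authors equals that processed signal to within 0.496% and was not used. Its columns that belong to no sample numbered 0. The scanner in the headers is not the model of the methods.

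The 43803 zebrafish spots were taken as log2 of the processed signal plus 50, quantile-normalised between arrays and averaged over the spots of a probe (41031 probes). The groups were compared with limma 3.58.1 in R 4.3.3 (lmFit, eBayes, no covariate), with outlier-flagged spots set missing in the fit only. Benjamini-Hochberg adjustment ran over the p-values of all probes, and a call needed an adjusted p of 0.01 or less and at least 2-fold. The methods of the study give these limits without saying whether p was adjusted, and the adjusted p was chosen here. The rule for the members is set on the processed signal, so the methods' normexp correction was made an alternative. That correction is also distorted by 2 spots with a local background over 1000 on 1 array. The number of arrays limits precision. The pools of the study were called biological replicates.

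The members, the gene lists and the tests were chosen with earlier results of these data known. RefSeq accessions named 1752 probes (assembly GRCz12tu, used for names and gene order), and the study's tables named 1407 more, of which 339 symbols were updated. Nothing but the symbols was taken from those tables. The text names each of up to 25 members with a symbol (23 had one, of which 1 is not reported here), list genes that are members, the 5 members without a symbol with the largest difference and 3 probes on each side of the limit. Alternatives covered the offset, the scaling, the background correction, the detection call, the limit, outlier spots, the fit and each array left out. The calculations were tested on simulated data. A planned search of promoters for HIF motifs was not run, and no sequences are printed here.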

Additional observations from a re-analysis of the deposited data

How the results depend on the processing

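The number of members, 199, depends on the scale. It was 396 with an offset of 16, 96 with an offset of 100 and 303 with scaling to the 75th percentile. With normexp it was 132, or 156 without the 2 spots of high local background. It was 54 with the milder detection call (32 of them among the 199), 67 with a limit of 1 and 482 with no limit. By the lower bound, 51 members were at least 2-fold and 18 at least 4-fold higher, but 26 and 9 when the lowest *vhl* pool replaced the mean, which was chosen after seeing the data. With 1 array left out, 211 to 297 probes met the rule, fewer arrays having to meet it. All 199 were kept at an offset of 16, with 75th percentile scaling and with no normalisation. With normexp 131 of the 199 were kept, or 155 without the 2 spots of high local background. Members called higher (28) numbered 98 with an offset of 16, 17 with an offset of 100, 45 with 75th percentile scaling, 50 with array weights, 43 when the fit held only probes detected in full in 1 group or both (well above background on each of its arrays), 149 with only an adjusted p of 0.05 asked, and 2 to 45 with 1 array left out. Over all probes, 539 were called higher and 527 lower. With no normalisation 380 were higher and 1297 lower, so that 22.7% of calls were higher in place of 50.6%. The lower calls numbered 817 with an offset of 16. Calls were 888 higher and 912 lower with array weights, 854 and 846 among probes detected in full in 1 group or both, 5014 and 5314 with only an adjusted p of 0.05 asked, and 24 to 841 higher and 35 to 912 lower with 1 array left out. Genes of the lists (49 higher, 15 lower, members apart) numbered 76 and 33 at that looser threshold and 4 to 50 higher and 1 to 21 lower with 1 array left out. The lower ones were 24 with normexp with or without the 2 defective spots, 24 with array weights, 25 with no normalisation and 27 among probes detected in full in 1 group or both.

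Replicate numbers 3 and 4 occur in both groups. The deviations of samples with the same number had r = 0 for both pairs, and those with unlike numbers had -0.02 and 0.02. With 3 arrays per group this cannot decide whether samples with the same number share more than that number. Replicate 1 occurs only in *vhl* and replicate 2 only in WT, so a fit with a replicate block compared the genotypes within replicates 3 and 4 alone. Few degrees of freedom were left. With this block, limma called 0 members, 0 probes higher, 0 lower, and 0 list genes higher and 0 lower. Its smallest adjusted p was 0.0618, while 153 members and 14914 probes had an unadjusted p under 0.05. Nothing is read from the lack of calls. The sign of the members' differences was fixed by their choice, and 4 of the 18 alternatives of the fit leave the differences of the 28 named members as they are. Under the others, 85 values moved by more than the replicate SD, mostly with another offset or with normexp. The difference of *mical1* ran from 0.32 to 1.02 and that of *cdk5* from 1.51 to 3.09.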
